A study of Mus musculus with 7 samples.

Results

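Gluconeogenesis is the making of glucose from lactate, amino acids and glycerol, which the liver carries out in fasting. Accessible chromatin was examined at 8 of its genes in mouse liver with 3 nucleases. The genes were chosen by name, with no use of their own hotspot values in the rule, and encode 4 enzymes (Pck1, G6pc, Fbp1 and Pcx), the transporter that feeds glucose-6-phosphatase (Slc37a4), and 3 regulators of the pathway (Ppargc1a, Foxo1 and Creb3l3). Every hotspot, a stretch where cleavage tags clustered above background, was taken that overlapped a gene body or the 20 kb on either side of it. This gave 265 of the 190871 hotspots in the 3 deposited lists, namely 92 of 72286 for DNase I, 88 of 60910 for Benzonase and 85 of 57675 for Cyanase.

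All 7 samples came from the liver of male C57BL/6 mice aged 8 weeks. DNase I digested the nuclei of fresh liver (1 sample in the labels, whereas the list names 2 pooled libraries), while Benzonase and Cyanase were each used on pulverized frozen liver at 0.25, 1 and 4 U (3 samples each). The tags of each nuclease were pooled before hotspots were called, so there is 1 list per nuclease, no spread between replicates and no test between nucleases. The nuclease, the fresh or frozen material and the number of pooled libraries differ together and cannot be told apart. Each list holds only positions on mm9, the depth behind a hotspot is unknown, and the intervals given for shares are 95% Wilson intervals that cover counting error only. As a check of the tissue, all 8 hepatocyte marker genes, among them Alb, Apoa1 and Ttr, had a hotspot at a transcription start site (TSS) in each list, and none of 5 markers of other tissues had one in any list. Markers of the other liver cells differed between lists, with 4 of 4 Kupffer cell markers in the DNase I list against 1 in each of the other lists, 0 of 4 endothelial markers against 2 and 2, 0 of 3 stellate cell markers against 1 with Benzonase and 3 with Cyanase, and 1 of 3 bile duct markers against 2 and 1. Over all genes the share with a TSS hotspot was 47.4% for DNase I, 57.4% for Benzonase and 55.7% for Cyanase. Some markers missed narrowly, since a DNase I hotspot lay 3 bp from a TSS of the endothelial marker Kdr. A Cyanase hotspot lay 97 bp from the TSS of the bile duct marker Epcam. At Ins2, a marker of other tissues, hotspots lay 371, 322 and 335 bp from a TSS with DNase I, Benzonase and Cyanase. The part of the other liver cells in the results at the 8 genes was not tested.

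In the fasted liver, glucagon acts through cyclic AMP and the factor CREB, which binds the cyclic AMP response element (CRE), and glucocorticoids act through their own receptor, while insulin excludes the forkhead factor FOXO1 from the nucleus. PGC-1α, the product of Ppargc1a, is a coactivator that works with FOXO1 and HNF4α at the genes for the last steps of the pathway. In the pathway itself, Pcx (pyruvate carboxylase) makes oxaloacetate from pyruvate, Pck1 (cytosolic phosphoenolpyruvate carboxykinase) turns it into phosphoenolpyruvate, Fbp1 (fructose-1,6-bisphosphatase) removes a phosphate from fructose bisphosphate, and Slc37a4 and G6pc (the catalytic subunit of glucose-6-phosphatase) carry glucose 6-phosphate into the endoplasmic reticulum and release glucose there. These mice had free access to food, and no fasted group was analysed here.

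To show the DNA that all 3 nucleases reached at the starts of these genes, the 250 bases before the 5′-most GENCODE protein-coding start that lay inside hotspots of all 3 lists are given for 5 genes, read 5′ to 3′ in the direction of transcription on mm9. Each stretch lay whole within a hotspot of every list. Capitals mark the core letters of the CRE, TGACG, called the short site here, or its reverse complement CGTCA, the whole CRE TGACGTCA (which holds a short site on each strand), and the GC box GGGCGG or CCGCCC. The stretches are chr2:172978299-172978548 (plus strand) for Pck1, chr11:101228625-101228874 (plus strand) for G6pc, chr13:62989643-62989892 (minus strand) for Fbp1, chr9:44204932-44205181 (plus strand) for Slc37a4 and chr5:51945161-51945410 (minus strand) for Ppargc1a.
Pck1: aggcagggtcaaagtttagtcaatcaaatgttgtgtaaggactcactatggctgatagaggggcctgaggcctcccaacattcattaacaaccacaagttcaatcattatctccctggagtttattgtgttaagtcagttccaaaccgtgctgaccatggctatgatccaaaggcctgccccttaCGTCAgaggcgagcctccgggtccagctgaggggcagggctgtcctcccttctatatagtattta
G6pc: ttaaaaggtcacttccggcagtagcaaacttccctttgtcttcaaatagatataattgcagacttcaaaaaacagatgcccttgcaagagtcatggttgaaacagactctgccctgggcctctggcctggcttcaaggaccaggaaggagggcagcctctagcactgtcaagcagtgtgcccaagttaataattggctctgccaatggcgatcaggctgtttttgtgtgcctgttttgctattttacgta
Fbp1: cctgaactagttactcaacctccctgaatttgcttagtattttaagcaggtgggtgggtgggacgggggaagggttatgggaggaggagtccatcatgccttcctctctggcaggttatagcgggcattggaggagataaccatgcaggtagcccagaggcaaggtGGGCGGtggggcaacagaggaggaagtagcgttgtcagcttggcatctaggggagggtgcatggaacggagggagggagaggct
Slc37a4: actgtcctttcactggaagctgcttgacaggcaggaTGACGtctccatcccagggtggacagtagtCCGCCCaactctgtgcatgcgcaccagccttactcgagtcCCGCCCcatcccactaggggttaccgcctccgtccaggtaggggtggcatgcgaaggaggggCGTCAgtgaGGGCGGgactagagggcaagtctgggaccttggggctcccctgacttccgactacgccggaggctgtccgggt
Ppargc1a: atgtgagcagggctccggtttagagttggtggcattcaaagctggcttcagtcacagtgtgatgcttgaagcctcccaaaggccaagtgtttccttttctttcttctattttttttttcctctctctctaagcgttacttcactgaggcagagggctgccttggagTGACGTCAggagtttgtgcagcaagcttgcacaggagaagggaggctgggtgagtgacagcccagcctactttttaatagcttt

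Motifs were searched by exact letters, on both strands, in the 500 bases before the same start of each of the 8 genes (for Creb3l3 before its inner RefSeq start, described further on). The whole CRE was found only at Ppargc1a, 84 to 77 bases before the start, and 2.24% of all 22365 promoters of that length hold it. These promoters were not limited to those with a hotspot, which 46.1% of all genes had in each list, whereas every start searched lay in hotspots of all 3 lists. Short sites were found at 5 of 8 genes (27.7% of all promoters), which were Pck1, Pcx, Slc37a4, Ppargc1a and Creb3l3. The short site of Pck1 lay 65 to 61 bases before the start, and Slc37a4 held short sites at 214 to 210 and at 82 to 78 bases. A further RefSeq start of Slc37a4 (44205029) lies upstream of the start used, inside the printed stretch. The short site at 82 to 78 bases lies downstream of that RefSeq start, as do GC boxes at 144 to 139 and 73 to 68 bases. The GC box, the site of SP1, was found at 5 of 8 genes (44.6% of all promoters), which were Fbp1, Pcx, Slc37a4, Foxo1 and Creb3l3. Single genes held the forkhead letters TGTTTAC (Foxo1, 273 to 267 bases before the start, 6.05% of all promoters), the glucocorticoid letters ACANNNTGT (Pck1, 359 to 351 bases, 11.6%) and the C/EBP letters TTGCNNAA (Ppargc1a, 359 to 352 bases, 18.9%). The forkhead letters TGTTTGC (8.37% of all promoters) and the HNF4 letters CAAAGTCCA (0.729%) were found at 0 of 8 genes. All matches lay inside hotspots of the 3 lists except the C/EBP match of Ppargc1a, which lay outside all of them, and the outermost of 5 GC boxes of Foxo1 at 491 to 486 bases, which lay outside the DNase I hotspot. A match of letters describes the sequence and is not a measured binding site. The 250 bases of G6pc held none of the 8 sets of letters. They end at the GENCODE start of G6pc (101228875), and its RefSeq start (101229030) lies further downstream, also inside hotspots of all 3 lists. The bases between these starts were not searched, so sites nearer the RefSeq start would have been missed.

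The windows of the 8 genes covered 687 kb and held 134 DNase I, 128 Benzonase and 124 Cyanase hotspots per megabase, against 27.2, 22.9 and 21.7 per megabase over the genome. Hotspots of the 3 lists that overlapped by at least 1 bp were joined into regions, of which the windows held 105 (of 94491 in the genome). Common regions, with DNase I and at least 1 of the other nucleases, numbered 66 of 105 (62.9%, interval 53.3 to 71.5), against 45.4% of all regions in the genome. DNase I alone had 19 regions (18.1%, interval 11.9 to 26.5), against 28.3%, and Benzonase or Cyanase without DNase I had 20 (interval 12.7 to 27.6%), against 26.3%. All 3 nucleases were present in 62 regions (59.0%, interval 49.5 to 68.0), against 40.0% of all regions. The windows were thus richer in shared regions than the genome as a whole, as a description of these windows. Of the other 4 common regions, 3 held DNase I and Benzonase and 1 held DNase I and Cyanase, and of the 20 regions without DNase I, 13 held both other nucleases, 4 Benzonase alone and 3 Cyanase alone.

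**Figure D1:**
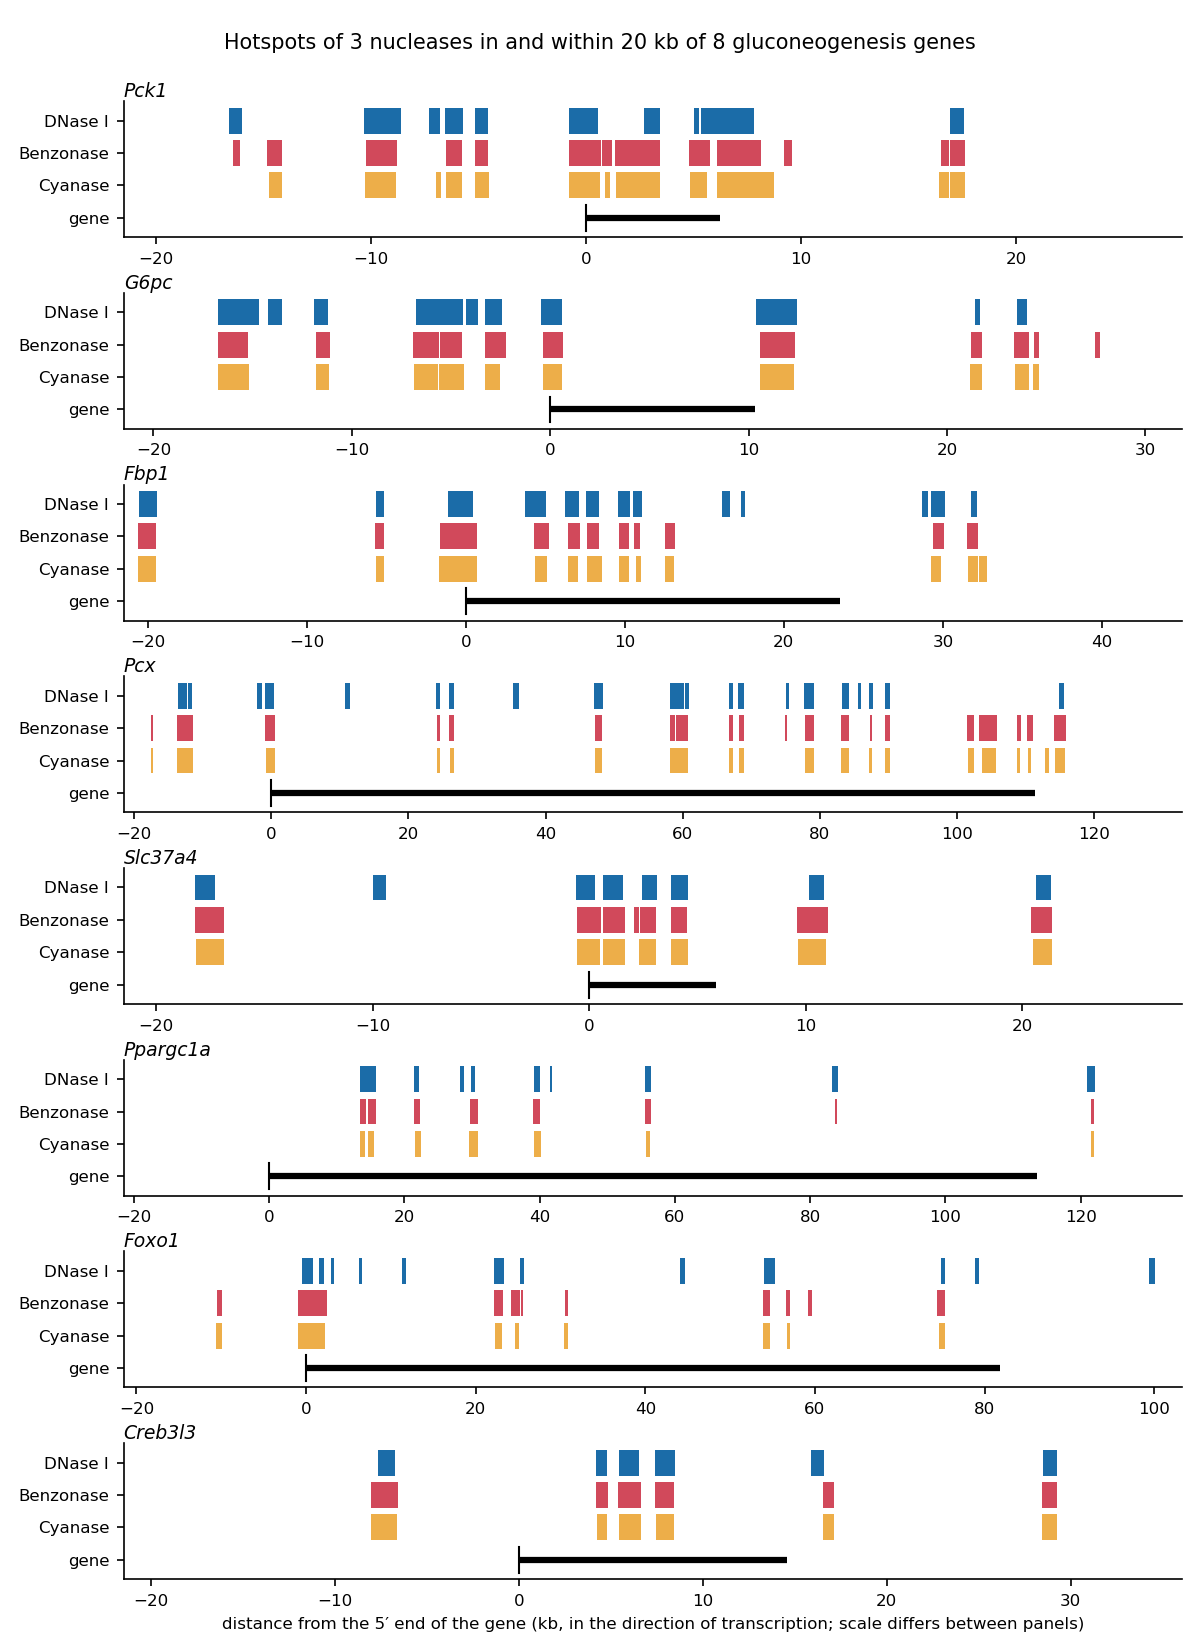
Hotspots of DNase I (blue), Benzonase (red) and Cyanase (yellow) in the windows of the 8 genes, by distance from the 5′ end of the gene in kb, with the gene body as a black bar. The last part of Pcx carries Benzonase and Cyanase hotspots with no DNase I hotspot, and the first hotspots of Ppargc1a lie inside the gene.

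Counted per list, 73 of 92 DNase I hotspots (79.3%, interval 70.0 to 86.4) overlapped a hotspot of Benzonase or Cyanase, against 63.0% of the whole list. Of the Benzonase hotspots, 70 of 88 (79.5%, interval 70.0 to 86.7) overlapped a DNase I hotspot, against 69.3%, and of the Cyanase hotspots 68 of 85 (80.0%, interval 70.3 to 87.1), against 71.1%. The share was higher between the nucleases used on frozen tissue. Of the Benzonase hotspots, 80 of 88 (90.9%, interval 83.1 to 95.3) overlapped a Cyanase hotspot, against 79.6%, and in the other direction 81 of 85 (95.3%, interval 88.5 to 98.2) did, against 85.4%. Where each hotspot of a pair had to lie over at least 50% of the other, regions of DNase I alone rose from 19 to 33 and those without DNase I from 20 to 37, so these counts depend on that rule, while common regions went from 66 to 59.

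**Figure D2:**
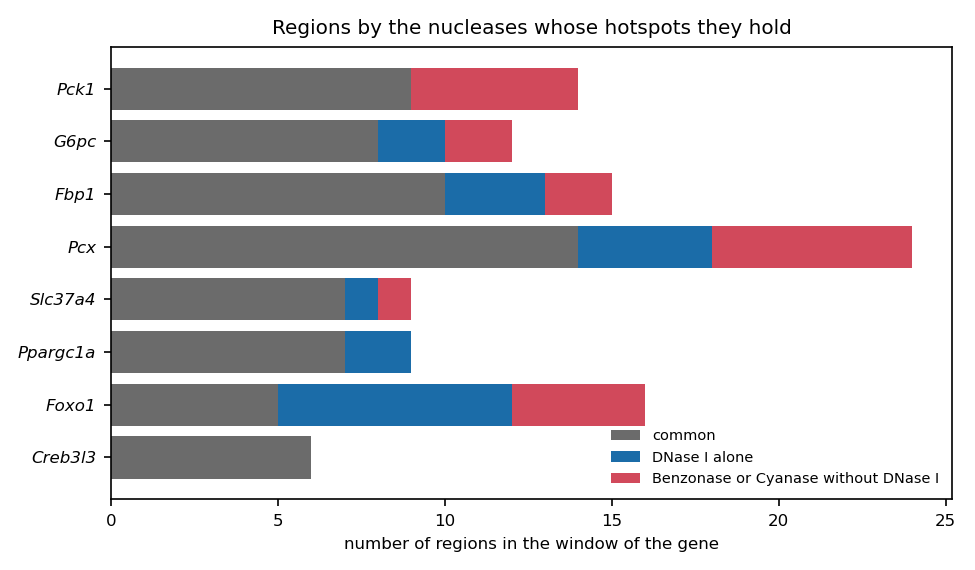
Number of regions in the window of each gene that were common (grey), held DNase I alone (blue) or held Benzonase or Cyanase without DNase I (red). All 6 regions of Creb3l3 are common, and DNase I alone is most frequent at Foxo1, with 7 of 16 regions.

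The windows of single genes differed in which lists had hotspots there, in counts of few regions that carry no test. Over all regions of the genome, 45.4% were common, 28.3% were of DNase I alone and 26.3% were without DNase I. All 6 regions of Creb3l3 held all 3 nucleases, while Foxo1 held 5 common regions, 7 of DNase I alone and 4 without DNase I. Pck1 held 5 regions without DNase I and 0 of DNase I alone, and Ppargc1a was the reverse, with 2 of DNase I alone and 0 without DNase I. Pcx, which has a window of 151 kb, held the most regions (24), with 14 common, 4 of DNase I alone and 6 without DNase I. Of the bases covered by any nuclease, those covered by all 3 made up 67.6% at Creb3l3, 65.6% at Slc37a4, 65.4% at G6pc, 53.5% at Fbp1, 52.5% at Pck1, 49.6% at Pcx, 49.5% at Ppargc1a and 30.4% at Foxo1. Liver is a mixture of cells, and a region open in fewer cells cannot be told apart from one that is less open in each cell.

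A TSS of a protein-coding transcript lay inside a hotspot at 7 of 8 genes in each list (87.5%, interval 52.9 to 97.8), all but Creb3l3. Over all genes with such transcripts this share was 47.4% for DNase I, 57.4% for Benzonase, 55.7% for Cyanase and 46.1% for all 3 lists at once. The same 7 genes were thus open at a start with every nuclease. The hotspots over these starts are described gene by gene in what follows.

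**Figure D3:**
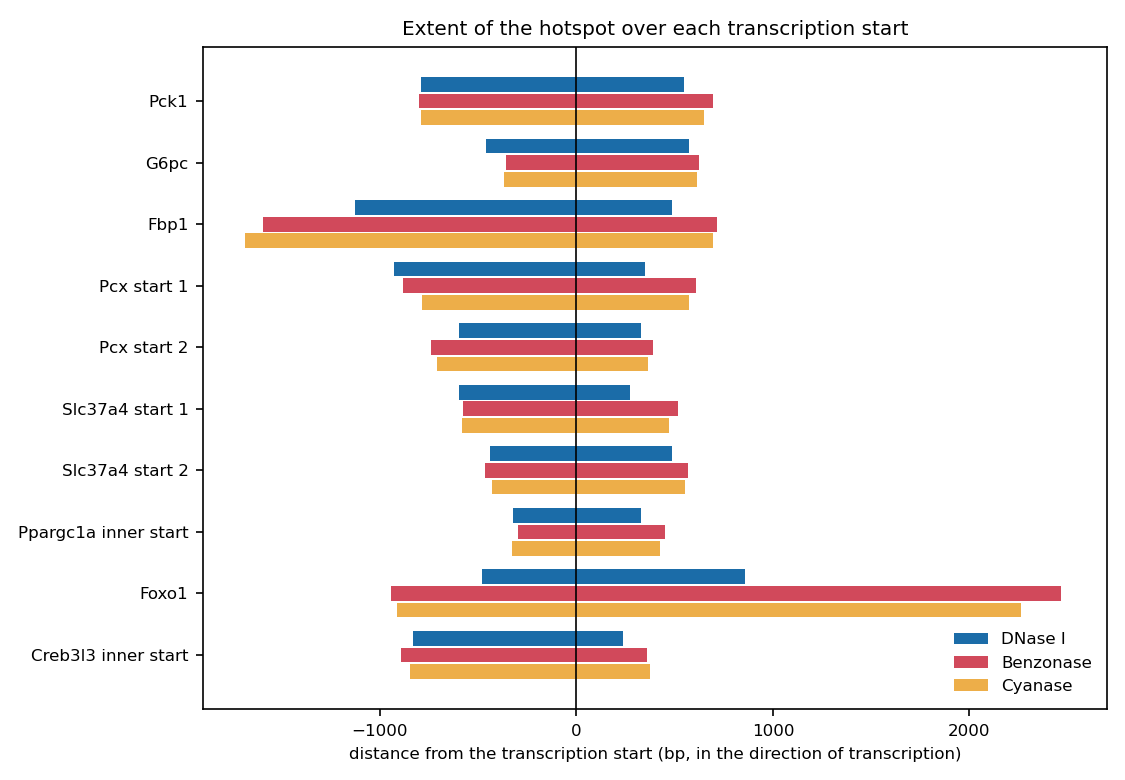
Extent of the hotspot of each nuclease over the transcription starts of the 8 genes, in bp from the start in the direction of transcription. The Benzonase and Cyanase hotspots of Foxo1 reach 2464 and 2261 bp into the gene against 858 bp for DNase I, while those of G6pc reach 625 and 613 bp against 572 bp. Only the hotspot over the start is drawn, and at Ppargc1a the DNase I hotspot meets another one at its downstream end.

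Pck1 (ENSMUSG00000027513.5) is a plus-strand gene on chromosome 2 from 172978549 to 172984774 and has 10 exons. Its TSS hotspot ran from 172977760 to 172979098 with DNase I (1339 bp), from 172977749 to 172979246 with Benzonase (1498 bp) and from 172977760 to 172979198 with Cyanase (1439 bp), over exons 1 and 2. The upstream bound was thus the same within 11 bp, and the hotspots differed in how far they reached into the gene. Inside the gene the nucleases parted. Over exons 4 to 6, the DNase I hotspot was 769 bp wide (172981234 to 172982002), whereas Benzonase and Cyanase hotspots of 2057 and 2064 bp began near 172979919, so that they covered 1315 bp and 1298 bp more at the 5′ side. The Cyanase hotspot was the widest of its list in this window, and the widest of DNase I (2441 bp, from 172983917) and of Benzonase (2066 bp, from 172984631) lay over the 3′ end of the gene. Exon 3 held a region without DNase I (172979300 to 172979756), and 4 more lay at 172963721 to 172964422, 172986706 to 172987312 (Cyanase alone), 172987771 to 172988146 (Benzonase alone) and 172994973 to 172995458. Upstream of the gene, between 172961946 and 172974033, 5 of 6 regions were common.

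G6pc (ENSMUSG00000078650.2) is a plus-strand gene on chromosome 11 from 101228875 to 101239217 and has 5 exons. At its TSS the hotspots had nearly the same width, with 1035 bp for DNase I (101228413 to 101229447), 982 bp for Benzonase (101228519 to 101229500) and 982 bp for Cyanase (101228507 to 101229488). No other region lay in the body of the gene. The rest of the signal was upstream and past the 3′ end. The widest DNase I hotspot (2349 bp, 101222113 to 101224461) lay upstream, where Benzonase had 2 hotspots and Cyanase 3, and the widest of Benzonase (1761 bp, from 101239432) and Cyanase (1729 bp, from 101239435) lay downstream, inside a DNase I hotspot of 2055 bp. Both regions of DNase I alone, 101214642 to 101215377 and 101224625 to 101225217, lay upstream and beside common regions. The regions without DNase I, 101253205 to 101253510 and 101256312 to 101256607 (Benzonase alone), lay past the 3′ end and were narrow, at 306 and 296 bp.

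Fbp1 (ENSMUSG00000069805.4) is a minus-strand gene on chromosome 13 from 62966113 to 62989642 and has 7 exons. The hotspot at its 5′-most start was the widest of each list in this window, with 1614 bp for DNase I, 2313 bp for Benzonase and 2384 bp for Cyanase, and the difference lay mostly upstream, where they reached 1127, 1596 and 1688 bp. It held the only CpG island of the window. A second annotated start at 62974118, inside the gene, had no hotspot, the nearest being 584 bp away with DNase I and 2394 and 2422 bp with Benzonase and Cyanase. Intron 1 held 5 regions with all 3 nucleases in a row (62978560 to 62985910), and in 4 of them both Benzonase and Cyanase hotspots were narrower than the DNase I hotspot. Exon 2 held a region without DNase I (62976512 to 62977109), and introns 3 and 4 held regions of DNase I alone (62973053 to 62973534 and 62972060 to 62972310). At the neighbour Fbp2, the isoform known from muscle, the TSS lay in hotspots of all 3 lists (895 bp, 727 bp and 622 bp for DNase I, Benzonase and Cyanase), next to a region of DNase I alone at 62960558 to 62960961 and a Cyanase hotspot with no partner at 62956851 to 62957367.

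Pcx (ENSMUSG00000024892.8) is a plus-strand gene on chromosome 19 from 4510472 to 4621752 and has 23 exons. The outer starts (4510472 and 4510522) and an inner start (4594319) all lay in hotspots of the 3 nucleases. At the outer starts these were 1279, 1492 and 1360 bp wide for DNase I, Benzonase and Cyanase, at a CpG island, and at the inner start 928, 1131 and 1073 bp, with no island. Intron 2, which holds the inner start, had 3 regions of DNase I alone among its common regions, at 4521287 to 4521919, 4545685 to 4546634 and 4595976 to 4596521, and another (4508467 to 4509164) lay before the outer starts. At the other end of the gene the pattern was the opposite. From intron 11 on, 5 regions in a row had no DNase I hotspot, at 4611953 to 4612926, 4613634 to 4616248, 4619140 to 4619716 (exons 15 and 16), 4620659 to 4621566 (exons 22 and 23) and 4623231 to 4623846 (Cyanase alone), with a GC content of 64.7, 66.5, 56.5, 56.9 and 56.8%. The first of these lay over Lrfn4, a gene within the window, the second held its TSS and a CpG island, and the last lay over Rce1, at whose TSS the DNase I hotspot was 693 bp wide against 1662 bp for Benzonase and 1423 bp for Cyanase. A further region without DNase I (4492898 to 4493193) lay upstream of the gene, as did the widest Benzonase and Cyanase hotspots of the window (2242 and 2219 bp), in the region that holds the TSS of 2010003K11Rik. The widest DNase I hotspot of the window was 1373 bp (4588188 to 4589560, intron 2).

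Slc37a4 (ENSMUSG00000032114.7) is a plus-strand gene on chromosome 9 from 44205182 to 44211046, has 9 exons and stands in a row of other genes. Both protein-coding starts lay in hotspots of all 3 nucleases. At 44205182 these were 869, 1094 and 1051 bp wide for DNase I, Benzonase and Cyanase, and at 44206259 they were 925, 1033 and 983 bp wide, the DNase I hotspot there being the widest of its list in the window. The widest Benzonase and Cyanase hotspots of the window lay at the neighbours Trappc4 and Rps25. The gene body held further common regions over exons 3 and 4 and over exons 6 and 7, and a region of Benzonase alone at exon 3 (44207230 to 44207480). The single region of DNase I alone (44195198 to 44195778) lay over an exon of Hyou1. At the starts of Hyou1, Trappc4 with Rps25, and Ccdc84, the DNase I hotspots were 914, 713 and 663 bp wide against 1352, 1416 and 980 bp for Benzonase and 1298, 1299 and 856 bp for Cyanase. All of these starts lay at CpG islands, and each Benzonase hotspot was the wider one.

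Ppargc1a (ENSMUSG00000029167.7) is a minus-strand gene on chromosome 5 from 51845488 to 51958964 and has 13 exons. No region lay upstream of the gene or at its outer starts (51958964, which is the only RefSeq start, and 51958963). The nearest hotspots were 13483, 13505 and 13475 bp from 51958964 for DNase I, Benzonase and Cyanase. The inner start at 51945160 lay in hotspots of 650, 750 and 757 bp, and these held the CRE printed above. Directly downstream, a second hotspot of each nuclease followed, which for DNase I was the widest of the window (1727 bp, 51943106 to 51944832). The DNase I hotspots met at 51944832, so DNase I covered 51943106 to 51945481 without a gap, and 650 bp is only a part of that stretch. Benzonase and Cyanase left gaps, from 51944379 to 51944710 and from 51944351 to 51944733. Intron 2 held 4 further regions with all 3 nucleases and the 2 regions of DNase I alone, 51930222 to 51930754 and 51917209 to 51917459, with a GC content of 36.8% and 33.5%. The widest hotspots of Benzonase and Cyanase, 1196 and 1184 bp, lay in that intron from 51928129, where the DNase I hotspot was 548 bp. In the last region, past the 3′ end (51836809 to 51838050), the order was turned, with 1242 bp for DNase I against 398 and 450 bp.

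Foxo1 (ENSMUSG00000044167.5) is a plus-strand gene on chromosome 3 from 52072259 to 52154031 and has 3 exons. The hotspot over its start was 1340 bp wide with DNase I (52071778 to 52073117), 3409 bp with Benzonase (52071315 to 52074723) and 3176 bp with Cyanase (52071345 to 52074520). These were the widest hotspots of the window in each list, and the region had a GC content of 63.1% and a CpG island. A second DNase I hotspot followed inside the stretch that the other nucleases covered with 1 hotspot each. Intron 1 held 5 regions of DNase I alone, at 52075195 to 52075605, 52078527 to 52078844, 52083537 to 52084003, 52116341 to 52116902 and 52126991 to 52127599, and 3 without DNase I, at 52102704 to 52103146, 52128880 to 52129327 and 52131470 to 52131924 (Benzonase alone). Exon 3 held another of DNase I alone (52151120 to 52151643), and the last lay past the 3′ end (52171624 to 52172391), while a region without DNase I lay upstream (52061688 to 52062308). The 5 regions of intron 1 with DNase I alone had a GC content from 37.5 to 43.7%, and the 3 without DNase I from 54.3 to 55.1%.

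Creb3l3 (ENSMUSG00000035041.8), which encodes CREBH, a liver factor freed from the endoplasmic reticulum membrane, is a minus-strand gene on chromosome 10 from 80547069 to 80561619 and has 12 exons. It was the only one of the 8 genes with no protein-coding start in a hotspot. Its protein-coding start is 80561619, and the nearest hotspots lay 4202, 4192 and 4218 bp away for DNase I, Benzonase and Cyanase. An inner RefSeq start at 80555336 lay in hotspots of all 3, from 80555100 to 80556167 (1068 bp), 80554977 to 80556231 (1255 bp) and 80554964 to 80556182 (1219 bp), over exons 2 and 3. Counting every annotated transcript, 8 of 8 genes had a start in a hotspot of each list. This wider rule can only raise the count, and the share of all genes under it was not counted. The DNase I hotspot at the inner start was the widest of its list in the window, and those of Benzonase and Cyanase (1438 and 1407 bp) lay at the start of the neighbour Map2k2. At an exon of the neighbour Thop1 the hotspots overlapped only at their edges, from 80545047 to 80545722 with DNase I and from 80544492 to 80545107 with Benzonase. Of the 12 RefSeq starts of the 8 genes, 10 lay in hotspots of all 3 lists, and the others were the outer starts of Ppargc1a and Creb3l3. The share of all RefSeq starts was not counted.

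In the windows, the median hotspot width was 711 bp for DNase I (quartiles 576 and 932 bp), 785 bp for Benzonase (586 and 1126 bp) and 766 bp for Cyanase (593 and 1073 bp), against 649, 652 and 641 bp in the whole lists. Regions with exactly 1 hotspot of each nuclease numbered 54, and there the bounds could be compared directly. A bound of Benzonase and the matching bound of Cyanase differed by a median of 25.5 bp, whereas Benzonase and DNase I differed by 68.5 bp. Over the genome these medians were 33 and 71 bp. The Benzonase hotspot was wider than that of DNase I in 32 of 54 regions (59.3%, interval 46.0 to 71.3), against 52.9% over the genome, and wider than that of Cyanase in 38 of 54 (70.4%, interval 57.2 to 80.9), against 68.1%. The Cyanase hotspot was wider than that of DNase I in 27 of 54 regions (interval 37.1 to 62.9%, median difference -6 bp), against 46.3% over the genome (median -16 bp). The regions were then divided by whether they held a start. With a protein-coding TSS inside, the Benzonase hotspot was the wider one in 12 of 14 (median difference 219 bp, from -168 to 969 bp), and without a TSS in 20 of 40 (median -2 bp, from -844 to 1288 bp). Over the genome these shares were 86.3% and 42.3%. The ranges of the differences overlapped widely. The exceptions among the 14 were the starts of G6pc (-53 bp) and Fbp2 (-168 bp), neither of which lies at a CpG island. Starts without an island at Pck1, at the inner start of Pcx and at the second start of Slc37a4 had a wider Benzonase hotspot (159, 203 and 108 bp wider).

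**Figure D4:**
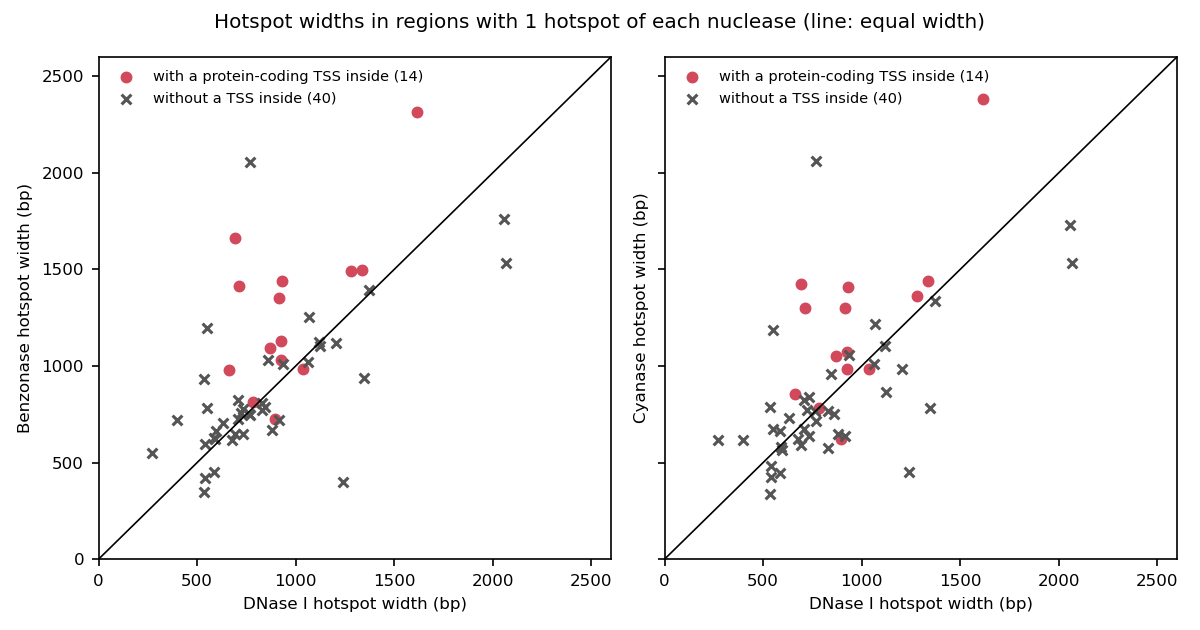
Width in bp of the Benzonase (left) and Cyanase (right) hotspot against the DNase I hotspot in the 54 regions with 1 hotspot of each nuclease, where the line marks equal width. With Benzonase, 12 of the 14 regions with a TSS (red circles) lie above the line, and the 40 regions without one (crosses) fall on both sides.

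To see what the regions of each kind shared in sequence, their GC content was taken from mm9. Regions of DNase I alone had a mean GC content of 42.9% ± 5.38 (SD, n = 19 regions), common regions of 50.3% ± 5.43 (n = 66) and regions without DNase I of 54.8% ± 5.97 (n = 20). The difference between regions without DNase I and those of DNase I alone was 11.9 percentage points, and over the genome it was 12.4. Of the 20 regions without DNase I, 12 were above the highest region of DNase I alone (53.7%), and of the 19 of DNase I alone, 12 were below the lowest without DNase I (44.3%). The ranges thus overlapped only in part. The 5 kb on either side differed less, at 45.1% for DNase I alone and 49.9% without DNase I. Regions without DNase I were above their own flanks in 16 of 20 cases, regions of DNase I alone in 7 of 19, and common regions in 55 of 66. Flanks were not compared over the genome. CpG islands lay in 10 of 66 common regions (15.2%, against 21.6% of common regions in the genome), in 1 of 20 without DNase I (at Lrfn4, against 13.4%) and in 0 of 19 of DNase I alone (against 0.146%). Much of the difference in mean GC content lay at 2 genes, since without the windows of Foxo1 and Pcx, a choice made after the data were seen, it was 6.24 points.

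**Figure D5:**
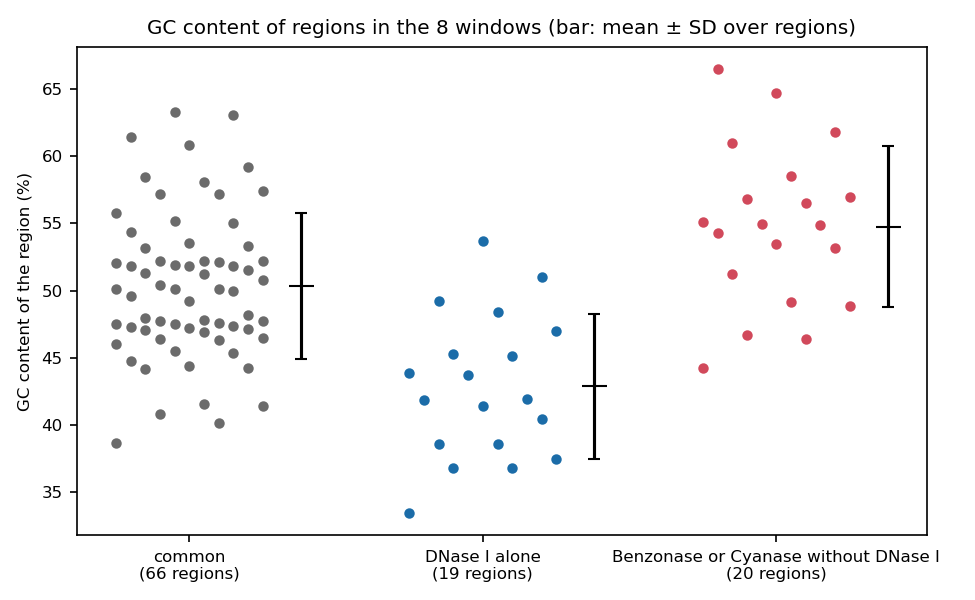
GC content in percent of the 105 regions by the nucleases they held, 1 point per region, with the mean and SD over regions at the right of each group. DNase I alone runs from 33.5 to 53.7% and Benzonase or Cyanase without DNase I from 44.3 to 66.5%.

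The contrast can be read from the centres of 4 regions, which are given as 150 bases each on the plus strand of mm9. These are the widest of their kind inside Foxo1 and Pcx that keep clear of untranslated sequence (regions without DNase I held both other nucleases), and capitals mark the forkhead letters TGTTTAC. In Foxo1 both lie in intron 1, where chr3:52127220-52127369 (DNase I alone) has a GC content of 31.3% and chr3:52129029-52129178 (without DNase I) of 60.0%. In Pcx, chr19:4546085-4546234 (DNase I alone, intron 2) has 48.7% and chr19:4621038-4621187 (without DNase I, at exons 22 and 23) has 58.0%. The 31.3% at Foxo1 is the lowest central value of all 19 regions of DNase I alone. Their mean over the central 150 bases was 43.2%, against 57.2% in the 20 regions without DNase I. Foxo1 and Pcx are also the genes where much of the difference lay.
Foxo1 DNase I alone: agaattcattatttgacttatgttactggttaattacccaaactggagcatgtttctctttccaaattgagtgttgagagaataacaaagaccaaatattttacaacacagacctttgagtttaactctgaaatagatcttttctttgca
Foxo1 without DNase I: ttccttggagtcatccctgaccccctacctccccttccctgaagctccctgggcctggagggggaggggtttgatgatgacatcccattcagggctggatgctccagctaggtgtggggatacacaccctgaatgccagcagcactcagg
Pcx DNase I alone: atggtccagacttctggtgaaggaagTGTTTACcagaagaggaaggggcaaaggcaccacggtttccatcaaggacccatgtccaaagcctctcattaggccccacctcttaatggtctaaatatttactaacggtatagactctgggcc
Pcx without DNase I: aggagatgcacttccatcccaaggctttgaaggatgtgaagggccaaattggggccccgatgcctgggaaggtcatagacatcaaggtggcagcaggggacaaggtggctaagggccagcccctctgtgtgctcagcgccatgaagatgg

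Regions were also placed by the annotation. Of the 19 of DNase I alone, 12 were intronic, 3 distal, 2 exonic and 2 at a promoter (within 2 kb upstream of a TSS), against 42.3, 45.6, 5.72 and 4.51% of that class over the genome. Of the 20 without DNase I, 7 were exonic, 7 distal, 4 intronic, 1 downstream and 1 at a promoter, against 11.8, 43.6, 28.7, 1.72 and 14.1%. Common regions were intronic in 26 of 66 cases, at a promoter in 17, distal in 15, exonic in 7 and downstream in 1, against 32.1, 27.3, 31.5, 7.35 and 1.77%. The windows were laid around genes, and these counts carry no test. In the central 250 bases, the C/EBP letters were found in 8 of 19 regions of DNase I alone (42.1%, against 22.6% of that class over the genome), in 8 of 66 common regions (12.1%, against 15.7%) and in 2 of 20 without DNase I (6.52% of that class over the genome). The CRE short site was found in 17 of 66 common regions (25.8%, against 14.7%), in 1 of 19 of DNase I alone (5.26%, against 9.24%) and in 3 of 20 without DNase I (15.0%, against 11.1%). GC boxes were found in 13 of 66 common regions (19.7%, against 19.5%), in 4 of 20 without DNase I (17.8% of that class over the genome) and in 0 of 19 of DNase I alone (against 2.35%). The forkhead letters TGTTTGC were found in 9 of 66 common regions (13.6%, against 7.83%), in 1 of 19 of DNase I alone (against 10.1%) and in 2 of 20 without DNase I (against 3.51%). The other forkhead letters, TGTTTAC, were found in 1 of 66 common regions (against 5.99%), in 3 of 19 of DNase I alone (15.8%, against 8.6%) and in 2 of 20 without DNase I (against 2.5%). The glucocorticoid letters were found in 5 of 66 common regions (7.58%, against 7.95%), in 3 of 19 of DNase I alone (15.8%, against 9.49%) and in 1 of 20 without DNase I (against 6.75%). The whole CRE and the HNF4 letters were found in the central 250 bases of 0 of the 105 regions. Over the genome, the whole CRE was in 0.845% of common regions, 0.367% of DNase I alone and 0.451% without DNase I. For the HNF4 letters these shares were 1.68, 1.95 and 0.383%, so both counts of 0 are near the shares over the genome. These counts describe the letters of few regions and carry no test.

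Other genes of the pathway were scored by the same rule at their starts. These genes were chosen with earlier results of these data known. The shares of all genes set beside them are therefore a description only. Of 21 other enzymes and carriers of gluconeogenesis, 20 had a TSS inside hotspots of all 3 lists, against 46.1% of all genes, and the other was Pck2, the mitochondrial form of phosphoenolpyruvate carboxykinase. At Pck2 the hotspots were 752 bp wide with Benzonase and 741 bp with Cyanase, and the nearest DNase I hotspot was 16414 bp away. Of 23 hormone and transcription regulators, all had a TSS in a Benzonase and a Cyanase hotspot (57.4% and 55.7% of all genes) and 20 in a DNase I hotspot (47.4% of all genes). The others were Gcgr, the glucagon receptor, where a DNase I hotspot lay 4 bp from a TSS, Irs2, an adaptor of the insulin receptor (247 bp), and Crebbp, a coactivator of CREB (412 bp). Of 9 isoforms used mainly in other tissues, Fbp2 and Aldoc were open with all 3 nucleases (22.2%, against 46.1% of all genes), and 7 had no TSS hotspot in any list. These were G6pc2, the islet form of the phosphatase, the glycolytic isoforms Eno2, Eno3, Pgam2 and Pgk2, and the testis forms Gapdhs and Ldhc. A DNase I hotspot lay 255 bp from a TSS of Gapdhs, and Benzonase and Cyanase hotspots lay 836 and 890 bp from a TSS of Eno3. The share of all genes with no TSS hotspot in any list was not counted.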

How the data were processed

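Per the labels and the methods of the study, liver DNA released by DNase I, Benzonase or Cyanase was sequenced and aligned by the authors to mm9 with Eland or Bowtie, and hotspots were called on the pooled tags of each nuclease at a false discovery rate of 0%. The deposited lists are described in their headers as input adjusted and unmerged, and give only the position of each hotspot (chromosome and both bounds), with no tag number or score. Depth per hotspot is therefore unknown. There were 0 columns of other samples.

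Positions were counted from 1 and compared with GENCODE release M1 on the same build. Hotspots in the gene windows were joined by overlaps of at least 1 bp. Promoters were 2 kb upstream of a TSS, and flanks 5 kb on each side. Regions were placed in the order promoter, exon, intron, downstream and distal. Exon numbers are those of 1 main transcript per gene. CpG islands were stretches found with scores of 17 per CpG and -1 per other base, and had a minimum of 200 bp, a GC content above 50% and a CpG ratio (observed to expected) above 0.6. RefSeq starts came from 12 promoter sequences of GRCm38.p6, each found once on mm9. Mpc1 and Mpc2 are annotated as Brp44l and Brp44. The printed bases were read from the mm9 sequence. The joining was tested on simulated lists. Python 3.11.15, numpy 2.4.6, scipy 1.17.1, pysam 0.24.0 and matplotlib 3.10.9 were used.

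The members, gene lists and motifs were chosen with earlier results of these data known. All 8 members are named with their TSS hotspots, the widest hotspots and each region not shared with DNase I or found by it alone. Neighbours are named where a TSS lies in a region, and pathway genes where lists differ or all lack a hotspot. Alternatives were windows of 0, 5 and 50 kb, overlap of 50%, joining within 150 bp, midpoints, width filters, other sets of starts and central 150 bp. Tags of single concentrations, expression and histone data were not analysed here.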

Additional observations from a re-analysis of the deposited data

How the results depend on the processing

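Of 85 alternative values, 67 stayed within 1.5 times the count or within the interval of the value, and 18 moved. A change of sign could be scored only for the difference in GC content, where 0 values reversed. For the mean GC content of each class, the interval used was that of the median. Without the flanks (0 kb), the windows held 58 DNase I, 55 Benzonase and 50 Cyanase hotspots and 40 common regions, and regions without DNase I fell to 10, and to 13 with flanks of 5 kb, because fewer hotspots were taken. Their mean GC content was then 57.4% at 0 kb, and the difference from DNase I alone was 17.1 points at 0 kb and 15.9 at 5 kb. Requiring an overlap of 50% of both hotspots gave 33 regions of DNase I alone and 37 without DNase I, and partner shares of 64.1% for DNase I, 64.8% for Benzonase and 65.9% for Cyanase. Over the central 150 bp, GC content was 52.8% in common regions and 57.2% without DNase I. In regions with 1 hotspot of each list, the median DNase I width was 804.5 bp. Without the windows of Foxo1 and Pcx the GC difference was 6.24 points, and without the regions over Lrfn4 and Rce1 it was 10.5 points, both chosen after the data were seen. With the 5′-most start alone, 6 of 8 genes had a TSS hotspot in each list, and the share of all genes by that rule was not counted. No paired analysis was possible because each nuclease has 1 list of pooled tags, and for the same reason no sample could be left out. Depth could not be related to any hotspot.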
